A study of Mus musculus with 7 samples.

Results

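Transcripts of splenic red pulp macrophages were examined in CD4+CD25+ splenocytes from aged and young mice. The genes were 10 listed members (C1qa, C1qb, C1qc, Vcam1, Spic, Hmox1, Cd5l, Mertk, Adgre1 and Csf1r), matched by gene name among the 25469 genes of the deposited table, out of 47729 genes in the count files. All 10 were found once and all 10 passed the filter on low counts. The aged group was 3 libraries from 18-month-old WT mice and the young group 4 libraries from 8-week-old WT mice, each a biological replicate by its label. The study's methods describe male C57BL/6 mice and put the young mice at a slightly older age than the labels do. Splenic Tregs were obtained with a magnetic regulatory T cell isolation kit, and cDNA was made with the SMART-Seq v4 kit. The comparison asks how the splenic Treg isolate differs with age. No transgene, surgery or treatment is given for these mice.

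Red pulp macrophages reside in the cords of the splenic red pulp, engulf ageing erythrocytes and return their iron to the body. Their identity depends on the transcription factor Spi-C (Spic), which haem induces, and on the growth factor receptor CSF1R (Csf1r). They carry F4/80 (Adgre1) and VCAM-1 (Vcam1), secrete complement C1q (C1qa, C1qb, C1qc) and CD5L (Cd5l), take up dying cells through MERTK (Mertk) and break down haem with haem oxygenase 1 (Hmox1). Several of these genes are not exclusive to them. Csf1r and Adgre1 are also read in monocytes, Vcam1 in stromal and endothelial cells, and Hmox1 in many stressed cells.

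Gene counts per library were 10734234 to 13649310, and a count of 3 equals 0.21 to 0.302 CPM (reads of a gene scaled to a common library total, with TMM normalization for composition). The members together took 0.0253% to 0.0438% of gene counts in the aged libraries and 0.0364% to 0.0499% in the young ones. Foxp3, which defines Tregs, was at 447 to 622 CPM in the aged and 394 to 518 CPM in the young libraries. Among macrophage genes that the list did not use, Cd68 and Lyz2 were read in every group, at 16.8 ± 2.09 CPM (SD, n = 3) and 17.5 ± 2.02 CPM (SD, n = 4) for Cd68 in aged and young. Vsig4 had 0 to 2 and Trem2 0 to 3 counts in a library. In a bulk isolate, fewer macrophages and less RNA per macrophage cannot be told apart.

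Of the 10 members, 4 fell in the aged isolate (Csf1r, Mertk, Adgre1 and Vcam1), 0 rose (0 also at an unadjusted p under 0.05), and 6 did not pass the test (C1qa, C1qb, C1qc, Spic, Hmox1 and Cd5l). A gene was called when its adjusted p was under 0.05 in edgeR's quasi-likelihood test with Benjamini-Hochberg adjustment over all 13904 genes tested. In that test 16.7% of all genes were called, 6.94% as lower and 9.80% as higher in aged mice. The groups of the same 4 members did not overlap, with each aged library below each young one, as was so for 14.4% of all genes tested. The median log2 fold change of the members was -0.33, against 0.02 over all genes tested. With each library left out in turn, 4 members were called lower in each of the 7 fits, and Hmox1 was called higher in 1.

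**Figure D1:**
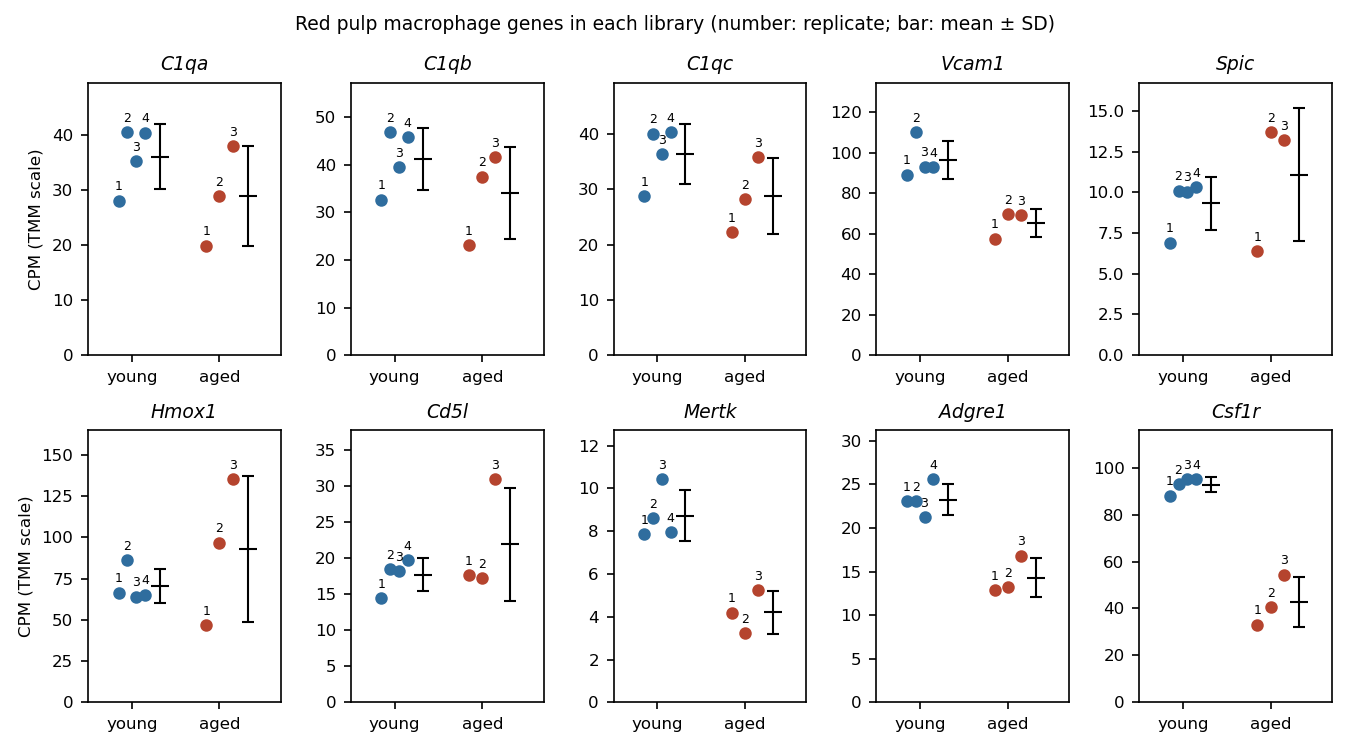
CPM on the TMM scale of each member in every library, young in blue and aged in red, with the replicate number above each point and the mean ± SD beside the points. The aged points of Csf1r, Mertk, Adgre1 and Vcam1 all sit below the young points, while those of the other 6 members overlap them.

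The receptors came first among the falls. Csf1r (ENSMUSG00000024621, chromosome 18 from 61100598 to 61132149, plus strand, GENCODE M21 on GRCm38) encodes the receptor for CSF1 and IL-34 on which macrophage survival depends. It was at 33.1, 40.6 and 54.4 CPM in the aged libraries (replicates in order, here and for each gene) and at 88.0, 93.0, 95.01 and 94.97 CPM in the young ones. The young libraries lay within 1.08-fold of each other, the aged ones within 1.64-fold, and the groups were far apart. The log2 fold change was -1.12 ± 0.157 (SE, adjusted p = 0.0031 from edgeR), which is 46.0% of the young level. Hmgxb3 shares 15.1% of the Csf1r exon length, and reads there cannot be assigned to 1 of the genes.

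Mertk (ENSMUSG00000014361, chromosome 2 from 128698956 to 128802894, plus strand) encodes a TAM family receptor tyrosine kinase for apoptotic cells. Its levels were 4.19, 3.22 and 5.24 CPM in the aged libraries and 7.87, 8.62, 10.4 and 7.96 CPM in the young ones. It had 32 to 132 counts in a library, and per kilobase of exon it was the lowest member in both ages (0.973 CPM in aged, 2.01 CPM in young). Its log2 fold change was -1.04 ± 0.215 (SE, adjusted p = 0.0148), 48.5% of the young level.

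Adgre1 (ENSMUSG00000004730, chromosome 17 from 57358691 to 57483527, plus strand) encodes F4/80, the adhesion receptor by which mouse macrophages are stained. It was read at 12.8, 13.2 and 16.8 CPM in aged mice and at 23.1, 23.1, 21.2 and 25.6 CPM in young mice, without overlap. The log2 fold change was -0.70 ± 0.138 (SE, adjusted p = 0.0127).

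Vcam1 (ENSMUSG00000027962, chromosome 3 from 116109949 to 116129688, minus strand) encodes the ligand of the integrin α4β1. It was at 57.5, 69.6 and 69.2 CPM in the aged libraries and at 89.2, 110.2, 93.1 and 92.8 CPM in the young ones. Its fall was the smallest of the 4, with a log2 fold change of -0.56 ± 0.113 (SE, adjusted p = 0.0139), 67.9% of the young level. Each of the 4 differences reached the smallest two-sided p that an exact permutation test of 3 against 4 libraries allows, 0.0571.

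**Figure D2:**
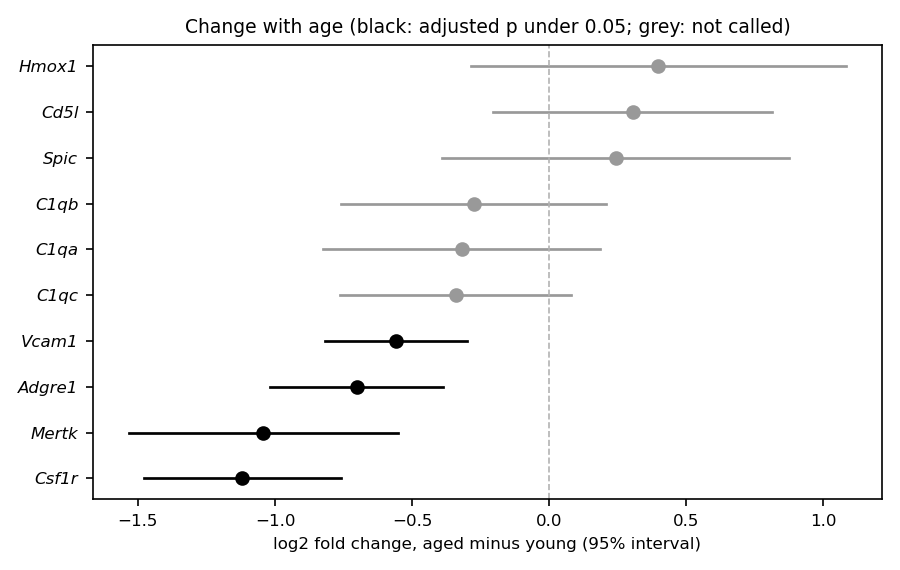
Log2 fold change of each member (aged minus young) with its 95% interval from edgeR, black where the adjusted p was under 0.05. The 4 called members lie wholly below 0, from -1.12 for Csf1r to -0.56 for Vcam1, and the intervals of the other 6 include 0.

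The C1q chains form the recognition unit of the classical complement pathway, in which equal numbers of A, B and C chains assemble. C1qa (ENSMUSG00000036887, 136895917 to 136898803), C1qc (ENSMUSG00000036896, 136889804 to 136893065) and C1qb (ENSMUSG00000036905, 136880129 to 136886187) lie beside each other on the minus strand of chromosome 4. C1qa was at 19.9, 28.9 and 38.0 CPM in the aged libraries and at 28.1, 40.6, 35.2 and 40.4 CPM in the young ones. C1qb was at 23.1, 37.5 and 41.5 CPM in aged and 32.6, 46.8, 39.4 and 45.7 CPM in young mice. C1qc was at 22.2, 28.2 and 35.8 CPM and at 28.8, 40.1, 36.3 and 40.4 CPM, in the same order. Aged replicate 1 was lowest and aged replicate 3 highest of the aged libraries for each chain, and the age groups overlapped.

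The log2 fold change was -0.32 ± 0.222 (SE, 95% interval -0.83 to 0.19) for C1qa, -0.28 ± 0.211 (SE, interval -0.76 to 0.21) for C1qb and -0.34 ± 0.185 (SE, interval -0.76 to 0.08) for C1qc. None was called, with adjusted p-values of 0.358, 0.41 and 0.24 from edgeR. These values moved with single aged libraries, to -0.11, -0.063 and -0.19 without aged replicate 1 and to -0.56, -0.44 and -0.53 without aged replicate 3, for C1qa, C1qb and C1qc, with no call in either fit. Pearson's r of log2 CPM over the 7 libraries was 0.98 for C1qa with C1qb, 0.99 for C1qa with C1qc and 0.95 for C1qb with C1qc, and Spearman's rho was 1, 0.89 and 0.89. These are given as a description, without a test, since the libraries share totals and composition and other members also varied together. Without aged replicate 1 and young replicate 1, the libraries farthest from the median log2 CPM of the first chain of each pair, r was 0.91, 0.97 and 0.88. The mean log2 ratio of C1qa to C1qc was -0.01 in both ages, with an SD of 0.13 in aged (n = 3) and 0.03 in young mice (n = 4). Per kilobase of exon, C1qb was at 31.3, C1qa at 27.8 and C1qc at 14.9 CPM in the aged group, and at 37.8, 34.7 and 18.8 CPM in the young group.

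Start-site windows of RefSeq on GRCm38.p6 were matched for 5 of the 10 members (C1qb, C1qc, Cd5l, Mertk and Spic). The 250 bases before the start are given for both matched C1q genes, whose levels followed each other, and for Mertk, which fell. They lie at chr4:136886201-136886450 (C1qb, minus strand), chr4:136892915-136893164 (C1qc, minus strand) and chr2:128698665-128698914 (Mertk, plus strand). Capitals mark the letters GAGGAA on either strand (TTCCTC where they read on the opposite strand), the core of the box that PU.1 and Spi-C recognise.
C1qb: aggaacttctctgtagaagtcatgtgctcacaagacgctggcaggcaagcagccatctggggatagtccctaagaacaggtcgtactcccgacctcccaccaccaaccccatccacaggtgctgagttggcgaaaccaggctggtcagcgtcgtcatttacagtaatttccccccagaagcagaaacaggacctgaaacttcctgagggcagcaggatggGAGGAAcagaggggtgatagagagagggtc
C1qc: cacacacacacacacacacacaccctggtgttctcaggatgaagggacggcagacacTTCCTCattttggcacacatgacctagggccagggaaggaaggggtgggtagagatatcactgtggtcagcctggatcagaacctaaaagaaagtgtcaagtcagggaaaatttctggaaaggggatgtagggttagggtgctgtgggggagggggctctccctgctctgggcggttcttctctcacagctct
Mertk: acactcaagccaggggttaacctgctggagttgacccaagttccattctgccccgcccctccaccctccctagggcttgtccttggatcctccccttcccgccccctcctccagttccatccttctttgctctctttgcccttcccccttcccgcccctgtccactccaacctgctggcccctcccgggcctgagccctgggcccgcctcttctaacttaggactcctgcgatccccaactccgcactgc

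Distances are from the RefSeq start. For C1qc and Spic that start lies inside the gene as GENCODE gives it above, so that the C1qc window lies partly and the Spic window wholly within those coordinates. The match lies 30 bases before the start of C1qb and, on the opposite strand, 193 bases before that of C1qc and 66 before that of Cd5l. The windows of Mertk and Spic hold none. Of all 32851 windows of 250 bases, 23.3% hold these letters. The longer run GAGGAAGT, which overlaps the shorter one, was in the C1qc window, and in 2.44% of all windows. The letters CACGTG (6.02% of all windows) and TATAAA (12.4%), and the Maf recognition element bound by Bach1 and Nrf2 (0.134%), were in none of the 5, searched on both strands.

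Spic, Hmox1 and Cd5l did not pass the test. The fold range was wider among the aged than the young libraries for these 3, as for 9 of the 10 members (all but Vcam1). Spic (ENSMUSG00000004359, chromosome 10 from 88674772 to 88685015, minus strand) was at 6.38, 13.7 and 13.2 CPM in the aged libraries and at 6.90, 10.1, 10.03 and 10.3 CPM in the young ones. Aged replicates 2 and 3 lay above each young library, and aged replicate 1 lay below them all. The log2 fold change was 0.24 ± 0.277 (SE, 95% interval -0.39 to 0.88, adjusted p = 0.588 from edgeR). It was 0.52 (adjusted p = 0.0953) without aged replicate 1, 0.063 without aged replicate 2 and 0.099 without aged replicate 3.

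Hmox1 (ENSMUSG00000005413, chromosome 8 from 75093621 to 75100589, plus strand) encodes the enzyme that opens the haem ring. It was at 46.8, 96.7 and 135 CPM in the aged libraries, a 2.89-fold range, against 66.5, 86.0, 64.1 and 65.2 CPM in the young ones. Again aged replicate 1 was below and aged replicates 2 and 3 above all young libraries. Its log2 fold change was 0.40 ± 0.3 (SE, 95% interval -0.29 to 1.08, adjusted p = 0.4). Leaving out aged replicate 1 raised it to 0.71, which was called (adjusted p = 0.0244), and leaving out aged replicate 3 brought it to 0.03 (adjusted p = 0.967).

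Cd5l (ENSMUSG00000015854, chromosome 3 from 87357881 to 87371073, plus strand) encodes a secreted scavenger receptor protein of tissue macrophages. It was at 17.6, 17.2 and 31.0 CPM in aged and 14.5, 18.5, 18.2 and 19.8 CPM in young mice, so that only aged replicate 3 stood above the young range. The log2 fold change of 0.30 ± 0.223 (SE, 95% interval -0.20 to 0.81, adjusted p = 0.385) was -0.026 without aged replicate 3.

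To take out what all members of a library share, each member was also set against the mean log2 CPM of the other 9 in the same library. On this scale Csf1r was lower in aged mice by 0.86 (log2 ratio 0.85 ± 0.06, SD, n = 3, against 1.71 ± 0.12, SD, n = 4) and Mertk by 0.74 (-2.804 ± 0.42, SD, n = 3, against -2.07 ± 0.22, SD, n = 4). Hmox1 was higher by 0.72, Cd5l by 0.70 and Spic by 0.62. The age groups of these 5 did not overlap, and the other 5 did overlap. For Hmox1 this rests on a near tie, with aged replicate 1 at 1.4494 and young replicate 2 at 1.44937. The ratio is given for the members alone, without a share over all genes beside it. Each of the 5 ratios without overlap reached the smallest exact permutation p of 0.0571 (two-sided), which is 0.114 adjusted over the 10 members, so no ratio could pass the threshold in this design. The ratio of each C1q chain differed between ages by 0.08 or less, with that of C1qb at 0.15 without aged replicate 1. The ratios of 1 library are not independent of each other, since a fall of some members raises the ratios of the rest.

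**Figure D3:**
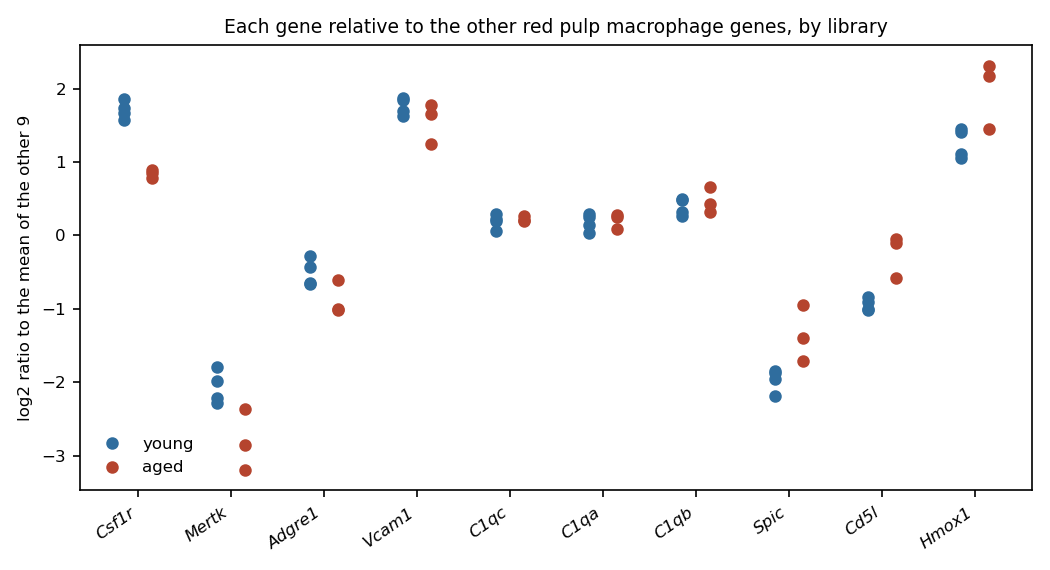
Log2 ratio of each member to the mean log2 CPM of the other 9 members, 1 point per library, young in blue and aged in red, ordered by the difference between ages. The aged points lie below the young ones for Csf1r and Mertk and above them for Spic, Cd5l and Hmox1. For Hmox1 the lowest aged and the highest young point nearly coincide.

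The log2 ratio was also taken for each pair of members. Of all 45 pairs, 23 had ages that did not overlap, and no share over pairs of other genes stands beside this count. Of the 23, 11 were among the 12 pairs of a called member with Spic, Hmox1 or Cd5l, so the count largely restates the calls. The widest difference was that of Hmox1 to Csf1r, at 1.02 ± 0.45 (SD, n = 3) in aged and -0.41 ± 0.21 (SD, n = 4) in young mice (exact permutation p = 0.0571, two-sided, adjusted over 45 pairs 0.112). Csf1r was lower against 8 of the other 9 members, all but Mertk, without overlap of the ages. Among the 4 called members, 3 of 6 pairs were without overlap, a share like that over all pairs. No pair could pass an adjusted threshold of 0.05 in this design. Against Vcam1, Csf1r was lower in aged mice by 0.59 and Mertk by 0.48 on the log2 scale, and against Adgre1, Csf1r was lower by 0.44. Among the C1q chains, and among Spic, Hmox1 and Cd5l, 0 of 3 pairs each were without overlap, with differences of up to 0.05 and 0.10. These pairs share members and libraries, and those singled out were chosen after the values were seen.

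Libraries of 1 age differed along a shared axis. Aged replicate 1 was the lowest aged library for 8 of the 10 members and aged replicate 3 the highest for 8. Young replicate 1 was the lowest young library for 8, while the highest was young replicate 2 or 4 for 4 members each. After the mean of each age was taken out, all 45 pairs of members had a positive Pearson correlation over the 7 libraries, with a median of 0.77. The median was 0.86 for the 15 pairs of members that were not called, 0.73 for the 24 pairs of a called member and a member not called, and 0.41 for the 6 pairs of called members, with Vcam1 and Mertk near 0. The call itself favours genes with little spread within an age, so this order is no result about the called members. This is a description without a test, since the points share library totals and composition. Without removing the age means, the median was 0.63 over all 45 pairs (-0.22 to 0.99), and 0.42 to 0.72 with each library left out. It was 0.60 for the 15 pairs of members not called and 0.27 for the 24 mixed pairs. For pairs with a called member this correlation also holds the age difference itself. Over the 10 members, which are not independent replicates, log2 CPM correlated between libraries at 0.95 to 0.98 within the aged, at 0.98 to 0.99 within the young and at 0.86 to 0.96 across ages.

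**Figure D4:**
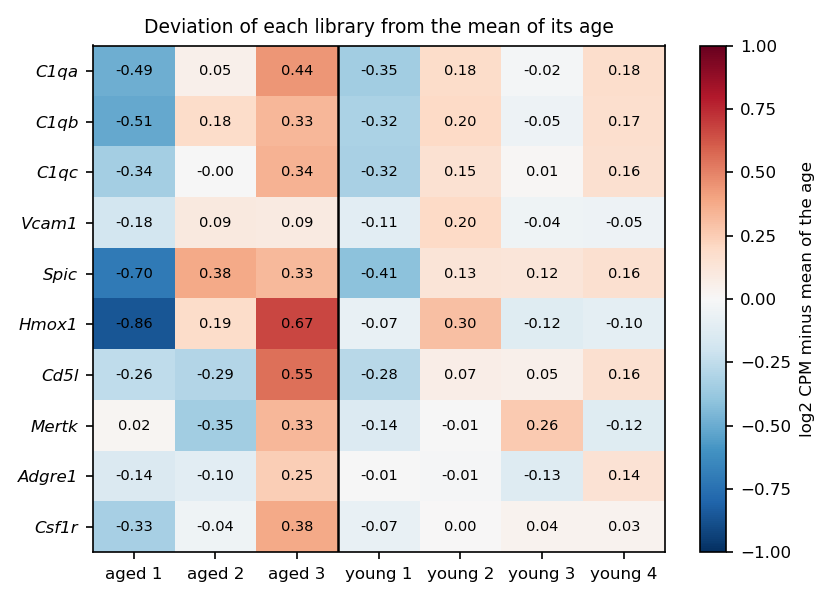
Log2 CPM of each member in each library minus the mean of its age, blue where lower and red where higher, with the value in each cell. Aged replicate 1 and young replicate 1 are mostly negative, and aged replicate 3 is positive for all 10 members.

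RNA of other sources also differed between libraries, and its part in the members' levels was not tested. Aged replicate 1 had the highest share of mitochondrially encoded transcripts (10.7% of gene counts, against 5.08% and 5.53% in the other aged libraries and 2.63% to 3.23% in the young ones, the highest of which was young replicate 2) and the highest summed level of 13 neutrophil genes (5512 CPM, against 1994 and 759 CPM in the other aged and 325 to 1036 CPM in the young libraries). The summed neutrophil level ran opposite to the summed level of the members (244, 349 and 440.4 CPM) in the aged libraries. In the young ones it was lowest in young replicate 2, where the members' sum was highest (477 CPM), and higher in young replicates 1 and 3 (656 and 1036 CPM), where the members' sum was lower (385 and 423 CPM). Of these neutrophil genes 5 of 13 rose (38.5%, against 9.80% of all genes) and 0 fell in aged mice. In the leave-one-out fits 2 to 8 rose, the fewest without young replicate 1 or young replicate 4. Haemoglobin transcripts took 1.27%, 13.1% and 7.60% of the aged libraries, and 10.4%, 1.24%, 6.15% and 5.91% of the young ones, in replicate order. In the young libraries this share ran opposite to the members' sum, from young replicate 1 (most haemoglobin, lowest sum) to young replicate 2. In the aged libraries it did not, since aged replicate 1 had both the least haemoglobin and the lowest sum. Of 10 erythroid genes tested, 0 were called by edgeR and 0 had an unadjusted p under 0.05.

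When the pattern of all members was averaged (mean of standardised log2 CPM), the genes most like it among 11946 others (those whose log2 CPM averaged at least 1) were Paox (r = 0.98), Tmem26 (0.98), Cfp (0.98), Pfn1 (0.97), Ufc1 (0.97), Trim45 (0.97), Tbcb (0.97), Tmem51 (0.97), Itga7 (0.97) and Arpc3 (0.96), over 7 libraries, where 0.46% of the genes compared reached an r of 0.9. Only Cfp, which encodes the complement protein properdin, is in the lists used here, and its log2 fold change was -0.34 (adjusted p = 0.167). With age means taken out, the most alike were Slc25a1 (0.99), 2210013O21Rik (0.99), Tbcb (0.99), Pts (0.99), Swsap1 (0.99), Chchd2 (0.99), Polr2g (0.98), Dgcr6 (0.98), Vamp8 (0.98) and Hmces (0.98). No gene of the macrophage lists was among them, and 1.64% reached an r of 0.9. These are descriptions of 7 libraries.

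Genes of the members' pathways were read in the same fit. Beside C1q, the complement list had 6 genes that rose (31.6%, against 9.80% of all genes) and 1 that fell (5.26%, against 6.94%) among 19 tested, with a median log2 fold change of 0.50. In the leave-one-out fits 4 to 6 rose and 1 to 3 fell, with 3 falls without young replicate 2 and 2 without aged replicate 3. C1ra, the protease that C1q activates, was at 3.67, 7.35 and 2.62 CPM in aged and 0.645 to 1.18 CPM in young mice, a log2 fold change of 2.29 ± 0.4 (SE, adjusted p = 0.00791). C1s1, its partner protease, rose by 1.93 (adjusted p = 0.0313), and Serping1, which encodes the C1 inhibitor, by 2.72 (adjusted p = 0.024). Both calls were lost in 4 of the 7 leave-one-out fits, for example without aged replicate 2, which was highest for each. Without that library their log2 fold changes were 1.34 and 1.87, and Serping1 was at 3.36 without young replicate 2. C4b rose by 3.76 (adjusted p = 0.00471, and by 2.85 without aged replicate 2), C3 by 1.56 (adjusted p = 0.00853) and the receptor gene C5ar1 by 2.70 (adjusted p = 0.00612). Cd93 fell by 1.74 on the log2 scale. Aged replicate 2, the highest library for C1ra, C1s1, C4b and Serping1, was among the aged libraries also the highest for 4 of 10 endothelial and stromal genes tested (Cxcl12, Pdgfra, Pdgfrb and Col1a1, with Cxcl12 at 33.9 CPM) and the lowest for another 4 (Pecam1, Cdh5, Kdr and Stab2). Col3a1 was highest in aged replicate 1 and Cxcl13 in aged replicate 3. C5ar1, at 10.4, 7.35 and 3.28 CPM in the aged libraries, had the same order there as the summed neutrophil genes. The part of these cells in the rises, and the difference between C1q and these genes, were not tested.

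In the CSF1 system, the ligand gene Csf1 rose from 13.2 to 20.1 CPM in the young libraries to 41.9, 67.9 and 68.0 CPM in the aged ones, a log2 fold change of 1.85 ± 0.203 (SE, adjusted p = 0.00126 from edgeR), while Il34 was under the filter on low counts. Of 14 genes tested among CSF1R ligands and macrophage transcription factors, 3 rose (Csf1, Maf and Cebpb) and 1 fell (Zeb2). These are 21.4% and 7.14%, against 9.80% and 6.94% of all genes. In the leave-one-out fits 2 to 4 rose and 0 or 1 fell. The Cebpb call was lost in 3 of the 7 leave-one-out fits and that of Zeb2 in 6. Spi1, which encodes PU.1, had a log2 fold change of -0.37 (adjusted p = 0.0809) with each aged library below each young one.

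Among genes for the uptake of dying cells, 3 rose (14.3%, against 9.80% of all genes) and 2 fell (9.52%, against 6.94%) of 21 tested. In the leave-one-out fits 2 to 4 rose (2 without aged replicate 3) and 1 to 3 fell (1 without young replicate 3 or 4, and 3 without aged replicate 2). Axl, another TAM receptor, was at 112, 121 and 149.8 CPM in aged and 78.0 to 79.8 CPM in young mice, a log2 fold change of 0.69 ± 0.109 (SE, adjusted p = 0.00515), opposite in sign to that of Mertk. Pros1, a ligand of MERTK, rose from 5.37 to 6.94 CPM in the young to 17.6 to 19.4 CPM in the aged libraries (log2 fold change 1.57 ± 0.138 SE, adjusted p = 0.000617). Tyro3 had a log2 fold change of -0.59 (adjusted p = 0.0996). Stab1 rose by 1.52, without a call when aged replicate 3 was left out, and Itgb3 fell by 0.84 on the log2 scale. The other fall was that of Scarb1 (log2 fold change -0.67, adjusted p = 0.0293), lost in 4 of the 7 leave-one-out fits.

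The haem and iron list had 2 genes that rose (11.1%, against 9.80% of all genes) and 2 that fell (11.1%, against 6.94%) among 18 tested, with a median of -0.10. In the leave-one-out fits 1 or 2 rose (1 without any of the young replicates) and 1 to 3 fell (1 without young replicate 1 or 4, and 3 without aged replicate 3). Cd163, the scavenger receptor for haemoglobin bound to haptoglobin, was at 4.54, 5.04 and 3.28 CPM in aged and 12.8, 13.2, 13.7 and 18.6 CPM in young mice (log2 fold change -1.77 ± 0.218 SE, adjusted p = 0.00188), a larger fall than that of any member. Hfe fell by 1.03 on the log2 scale (adjusted p = 0.0184), called in 4 of the 7 leave-one-out fits. Slc40a1, which encodes the iron exporter ferroportin, was at 37.7, 48.4 and 58.9 CPM against 61.7 to 68.4 CPM, a log2 fold change of -0.40 that was not called (adjusted p = 0.0925). Cp, which encodes ceruloplasmin, rose by 1.88 (adjusted p = 0.0139, and by 1.28 without aged replicate 2), and Hp, which encodes haptoglobin, by 2.04 (adjusted p = 0.0333), the latter not called without aged replicate 1 (1.203) or without any 1 of the young replicates. Hp was at 87.0, 33.9 and 18.4 CPM in the aged libraries. Within each age its libraries had the same order as the summed neutrophil genes, whose part in its rise was not tested.

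Of 23 tested genes on a list of other red pulp and general macrophage markers, 6 fell (26.1%, against 6.94% of all genes) and 2 rose (8.70%, against 9.80%), with a median log2 fold change of -0.06. Mrc1, the mannose receptor gene, was at 16.5, 16.8 and 20.3 CPM in aged and 32.7 to 36.9 CPM in young mice (log2 fold change -0.93 ± 0.119 SE, adjusted p = 0.00218). Itgad, which encodes the integrin CD11d of red pulp macrophages, fell by 0.88 on the log2 scale (adjusted p = 0.00635). Fcna, Treml4 and Mpeg1 fell too, with log2 fold changes of -0.81, -1.20 and -0.76, and the 6th was Cd163. Axl and Cd300lf rose. In the 7 leave-one-out fits Fcna was called in 6, Treml4 in 4 and Mpeg1 in 2, and all 3 were lost without young replicate 4, which left 3 falls. Cd68, Lyz2, Ctsb, Ctsd and Sirpa had log2 fold changes between -0.22 and 0.24 and were not called.

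**Figure D5:**
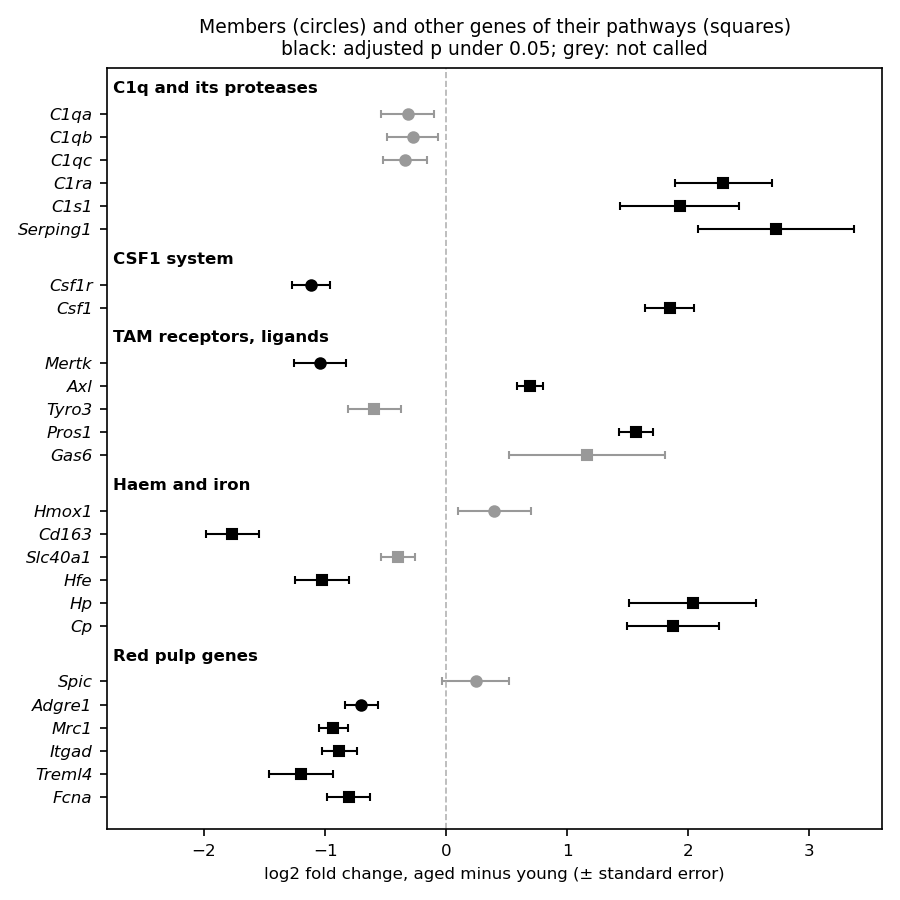
Log2 fold change (aged minus young, ± standard error from edgeR) of members (circles) and of other genes of the same pathways (squares), black where the adjusted p was under 0.05. Csf1r and Mertk lie near -1 while Csf1, Axl and Pros1 lie above 0, and the C1q chains lie near -0.3 while C1ra, C1s1 and Serping1 lie above 1.9.

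VCAM-1 binds integrins on lymphocytes and myeloid cells. The 6 partner genes tested were those of integrin chains (Itga4, Itga9, Itgb1 and Itgb7) and Ezr and Msn, which encode no integrin. Of the 6, 2 fell (33.3%, against 6.94% of all genes), namely Itga9 (log2 fold change -1.39, adjusted p = 0.004) and Ezr (-0.59, adjusted p = 0.00891). Itga9 was the only integrin gene of the list that was called. Itga4, which encodes the α4 chain, had a log2 fold change of -0.32 (adjusted p = 0.274). Endothelial and stromal genes, a further source of Vcam1 transcripts, summed to 164 to 174 CPM in aged and 190 to 224 CPM in young mice, with 1 of 10 rising (Cxcl12, called in 2 of the 7 leave-one-out fits, in which 0 to 3 genes rose), 1 falling (Pecam1) and the median log2 fold change at 1.05. The counts of calls are 10% in each direction, against 9.80% of all genes higher and 6.94% lower. The lower sum in aged mice rests on Pecam1. Without it (a sum added after the values were seen) the other genes summed to 41.2 to 69.9 CPM in aged and 18.7 to 33.9 CPM in young mice, and 5 of the 10 were higher at an unadjusted p under 0.05. Their part in the Vcam1 level was not tested.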

How the data were processed

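RNA-sequencing of 7 libraries (3 aged, 4 young) was used. The authors deposited raw read counts per Ensembl gene for each library, in the layout of HTSeq-count (read from the file naming as union mode without strand). The labels name the mm10 build. The aligner and annotation are not given in the sources used here. A deposited table for the series holds a signal, which the authors made by dividing each count by 1 size factor per library, and their own fold changes and p-values, which were not used. Gene names were taken from that table. The 5 lines for unassigned reads (13.1% to 20.9% of reads) were left out. The main comparison was the quasi-likelihood test of edgeR 4.0.16 (R 4.3.3) after filterByExpr by group and TMM normalization, without covariates and with Benjamini-Hochberg adjustment over 13904 genes, and each SE was taken as the size of the log2 fold change divided by the square root of its F value. The paper's methods name limma, which was run as an alternative (limma 3.58.1), as was DESeq2 1.42.0. Log2 CPM used a prior count of 2. Intervals cover the spread between these libraries. Limits of 3 counts hold counting error alone, since no molecular identifiers were used. Exact permutation tests are two-sided. Coordinates are of GENCODE M21 on GRCm38 and may differ from the annotation used for counting. Without strand, reads of overlapping genes cannot be told apart.

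The named genes were the members, the called genes of the fixed lists with the largest changes, the defining genes of each cell type and the 10 genes most like the mean of the members. Other genes of the lists that are named without a call (such as Tyro3, Itga4, Slc40a1, Ctsb, Ctsd and Il34) were chosen after their values were seen. The members, lists and alternatives were chosen with earlier results of these data known. Alternatives were other tests and normalizations, filters on low counts, haemoglobin, immunoglobulin and mitochondrial genes left out, the replicate number as a block and each library left out. The tests were also run on simulated data, whose outcome is not reported here.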

Additional observations from a re-analysis of the deposited data

Results flagged for a closer look

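In the young group of 4 libraries, 2 members had 1 library far from the other young ones by Dixon's test at 95%, which chance alone gives in about 5% of groups. Spic was at 6.90 CPM in young replicate 1, below 10.03 to 10.3 CPM in the other young libraries. Hmox1 was at 86.0 CPM in young replicate 2, above 64.1 to 66.5 CPM in the others. Without young replicate 1 the log2 fold change of Spic was 0.13, and without young replicate 2 that of Hmox1 was 0.51, and neither gene was called.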

How the results depend on the processing

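Of 160 alternative values of the members' log2 fold changes, 155 kept their direction and their side of the threshold. Over these 16 alternatives Csf1r was called each time, with a log2 fold change from -1.33 to -0.97. Vcam1, Mertk and Adgre1 were called in 15, all but the replicate block, where they were at -0.57, -1.10 and -0.66 (adjusted p = 0.0708, 0.0769 and 0.114). Cd5l reversed to -0.026 (adjusted p = 0.944) without aged replicate 3 and ran up to 0.45 with another library left out, and Hmox1 was called without aged replicate 1. With the replicate number as a block, 1 member was called, as lower, 1 other macrophage gene, and 292 genes in all (202 higher, 90 lower). Deviations of same-numbered libraries correlated at -0.09, -0.29 and -0.14, and no aged library correlated best with its own number. These values gave no sign that the numbers pair the libraries, though so few cannot settle it. When calls also needed a log2 fold change of size 1 or more, 2 members, both lower, and 1016 genes were called. Ratios to Csf1r alone gave 8 genes without overlap of the ages in place of 5. Leaving out each library in turn, 1237 to 3058 genes were called (783 to 1603 higher, 448 to 1455 lower), 5 to 9 other macrophage genes, 4 or 5 members, and 5 or 6 member ratios were without overlap. The cause was not tested. No normalization changed the number of members whose groups did not overlap (these 3 settings were chosen after seeing the data). Mertk had as few as 32 counts in a library, the fewest of the members, so depth limits it most.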

Other observations

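Genes of macrophages of other splenic zones and of other myeloid cells were read in the same fit. Over all genes tested, 9.80% rose and 6.94% fell, and the counts of calls below stand beside these shares. Of 6 genes listed for marginal zone and metallophilic macrophages, 1 fell, Adgre4 (log2 fold change -1.42, adjusted p = 0.0241 from edgeR, and -2.04 without aged replicate 3). It was called in 3 of the 7 leave-one-out fits (0 to 2 genes fell in these), and the median of the list was -0.63. Whether the Adgre4 RNA came from these macrophages was not tested. The 6 genes summed to 16.3 to 41.0 CPM in aged and 45.1 to 52.6 CPM in young mice. That gap rests on Adgre4, at 3.49, 3.52 and 9.17 CPM in aged and 13.5 to 16.2 CPM in young mice. Without it the sums of the ages overlap, a check made after the values were seen. Siglec1, which encodes CD169 of metallophilic macrophages, was at 2.62 to 4.28 CPM against 4.69 to 8.53 CPM (log2 fold change -1.03, adjusted p = 0.0527). Marco, a marginal zone macrophage receptor gene, had a log2 fold change of -0.43 (adjusted p = 0.557), and Cd209b of the same list one of 0.58 (adjusted p = 0.442).

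Of 11 monocyte genes, Cd14 rose by 1.15 (adjusted p = 0.0132), while Ace, read in patrolling monocytes, had a log2 fold change of -2.99 (adjusted p = 0.0126, and -3.59 without aged replicate 3) and F13a1 one of -1.40 (adjusted p = 0.0295, called in 2 of the 7 leave-one-out fits). Of 10 dendritic cell genes, Cd209a had a log2 fold change of -3.41 (adjusted p = 0.0131, from -4.28 without aged replicate 2 to -2.804 without aged replicate 1), Siglech one of -1.64 (adjusted p = 0.014) and Clec9a one of -1.64 (adjusted p = 0.049, called in 1 of those 7 fits, without aged replicate 3, at -2.57), and Zbtb46 rose by 0.95 (adjusted p = 0.0154, not called without aged replicate 3). Of 8 B cell genes 0 were called by edgeR (3 were lower at an unadjusted p under 0.05, and 2 were called lower without aged replicate 3), of 6 plasma cell genes 1 rose (Prdm1, in 2 of those 7 fits, with 4 rises without young replicate 2 and 0 in 5 fits), of 6 platelet genes 2 rose (Ppbp in 4 and Treml1 in 2 of those 7 fits, with 3 rises without aged replicate 1 and 0 without aged replicate 3, young replicate 1 or young replicate 3) and 1 fell (Itgb3), and of 8 CD4+ T cell and Treg genes 1 rose (Cd3e, also in 2 of those 7, with 3 rises without young replicate 2).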
